A study of Saccharomyces cerevisiae W303 with 86 samples.

Results

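The 7 genes described here encode the dehydrogenases that feed electrons from the cytosol and the matrix into the yeast respiratory chain, with the kinase that supplies one of them. They were taken by name, and 7 of the 7126 features in each deposited file are these genes. NDI1, NDE1 and NDE2 encode NADH dehydrogenases. GUT1 and GUT2 act on glycerol, and CYB2 and DLD1 oxidise lactate.

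Budding yeast has no proton-pumping complex I. Ndi1, on the matrix face of the mitochondrial inner membrane, and Nde1 and Nde2, on its outer face, pass electrons from NADH to ubiquinone instead. Gut1 phosphorylates glycerol in the cytosol, and Gut2, a flavoprotein of the inner membrane, oxidises glycerol 3-phosphate and also reduces ubiquinone, so that together with the cytosolic enzymes Gpd1 and Gpd2 it forms a shuttle for cytosolic NADH. Cyb2 (cytochrome b2) and Dld1 oxidise L-lactate and D-lactate and hand their electrons to cytochrome c, downstream of complex III. Growth on glucose is known to keep many genes of respiratory metabolism low, and the kinase Snf1 is needed to lift that repression, in part through the repressor Mig1.

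Poly(A) RNA (78 libraries) and ribosome footprints (8 libraries) were sequenced from Saccharomyces cerevisiae W303-1A, a laboratory strain, grown in synthetic medium with 2% glucose to an optical density of 0.5 to 0.8. The 29 groups form 7 sets, each compared with its own controls, and per the design text each mRNA group had 3 biological replicates and each footprint group 2. The OXPHOS set held wild type (WT, 6 libraries), deletions of COR1 (complex III), COX9 (complex IV) or ATP7 (ATP synthase), and rho0 cells, which lack mitochondrial DNA. The PUF3 set held WT, puf3, atp7, atp7 puf3, rho0 and puf3 rho0. Puf3 is an RNA-binding protein of mRNAs for mitochondrial proteins. The footprint set held WT, rho0, puf3 and puf3 rho0 cells given cycloheximide at 100 µg/ml for 2 min. The Puf3-15A set held WT, rho0, the phosphorylation-site allele puf3-15A and puf3-15A rho0. The SNF1 set held WT and snf1, each without treatment or with ethidium bromide (EB), which removes mitochondrial DNA, at 25 µg/ml for 48 h. The MIG1 set held snf1 and snf1 mig1, both treated with EB in the same way. The INH1 set held WT, rho0, and rho0 with INH1, the inhibitor of ATP hydrolysis by the ATP synthase, under the copper-inducible CUP1 promoter (CUP1p-INH1), without or with CuSO4 at 10 mM for 12 h. No library had copper without the construct, and all groups of the MIG1 set lack SNF1.

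Levels were deposited as RPKM, in which reads are divided by gene length and library size. Whole reads could be recovered from them, and the implied library totals ran from 8622304 to 71107868 for mRNA and from 1149911 to 2983581 for footprints. In libraries labelled as lacking a gene that gene did not exceed 1.77 RPKM, and 5 mitochondrially encoded mRNAs summed to at most 0.784 RPKM in rho0 and EB libraries. W303-1A is a haploid strain of mating type a, and the marker genes of some groups went against that. The summed level of 7 genes specific to mating type a was 20.3 to 27.2 RPKM in WT of the INH1 set, 16.8 to 32.4 in WT footprints, and 21.8 to 42.3 in all groups lacking SNF1, against 1100 to 3046 RPKM in the other groups outside WT of the PUF3 set, which had 566 to 831. The 5 haploid-specific genes were low in the same groups, for example 41.5 to 48.5 RPKM in WT against 415 to 432 in rho0 of the INH1 set. The alpha-specific genes were low throughout, with at most 61.8 RPKM for 4 genes. Since these are bulk samples, fewer cells of a type and less RNA per cell cannot be told apart, and whether these groups differ from the others in mating type or ploidy was not tested. Where the markers moved most, their values are given beside the comparison. Of the 7 a-specific genes, 4 were also called lower in rho0 against atp7, 6 in puf3-15A rho0 against rho0, 5 in the difference of the puf3-15A effects, and 2 each in puf3 rho0 and in CUP1p-INH1 against rho0, while 4 were higher in the difference of the EB effects and 6 in puf3 footprints. Their part in these comparisons was not tested.

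Levels per gene length differed widely among the 7 genes. Over the 18 WT mRNA libraries, NDE1 (YMR145C, chromosome XIII, 554793 to 556475, build R64) was highest, with 484.6, 620.5 and 746.2 RPKM as the lowest, median and highest value. DLD1 (YDL174C, chromosome IV, 145826 to 147589) followed at 157.7, 182.7 and 225.3 RPKM, and NDI1 (YML120C, chromosome XIII, 28266 to 29807) at 50.96, 103.5 and 120.0 RPKM. The ranges of these genes did not overlap in WT.

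GUT1 (YHL032C, chromosome VIII, 36379 to 38508) had 25.4, 31.7 and 36.9 RPKM, GUT2 (YIL155C, chromosome IX, 51759 to 53708) had 14.9, 29.5 and 38.3, and CYB2 (YML054C, chromosome XIII, 165533 to 167308) had 11.3, 29.4 and 44.7. These 3 overlapped and cannot be ordered. NDE2 (YDL085W, chromosome IV, 303211 to 304848) was the lowest, at 1.21, 2.03 and 2.90 RPKM, and rested on 25 to 60 reads per library, whereas its paralog NDE1 had 7041 to 15614. Within single WT libraries NDE1 was thus 180 to 501 times NDE2 in the OXPHOS set and 265 to 370 times in the PUF3 set. It was 201 to 264 times NDE2 in the Puf3-15A set, 317 to 347 in the SNF1 set and 253 to 382 in the INH1 set.

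Over all 78 mRNA libraries CYB2, NDE2 and GUT2 varied most. CYB2 ran from 10.7 to 713.3 RPKM, a ratio of 66.8, NDE2 from 0.996 to 29.3 RPKM, a ratio of 29.4, and GUT2 from 14.9 to 215.8 RPKM, a ratio of 14.5. The ratio was 5.48 for NDI1, 4.78 for DLD1, 3.74 for GUT1 and 2.73 for NDE1. The extremes lay in few groups: the highest values of NDI1, GUT1, GUT2, CYB2 and DLD1 were in EB-treated WT, and that of NDE2 was in copper-treated rho0 CUP1p-INH1.

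**Figure D1:**
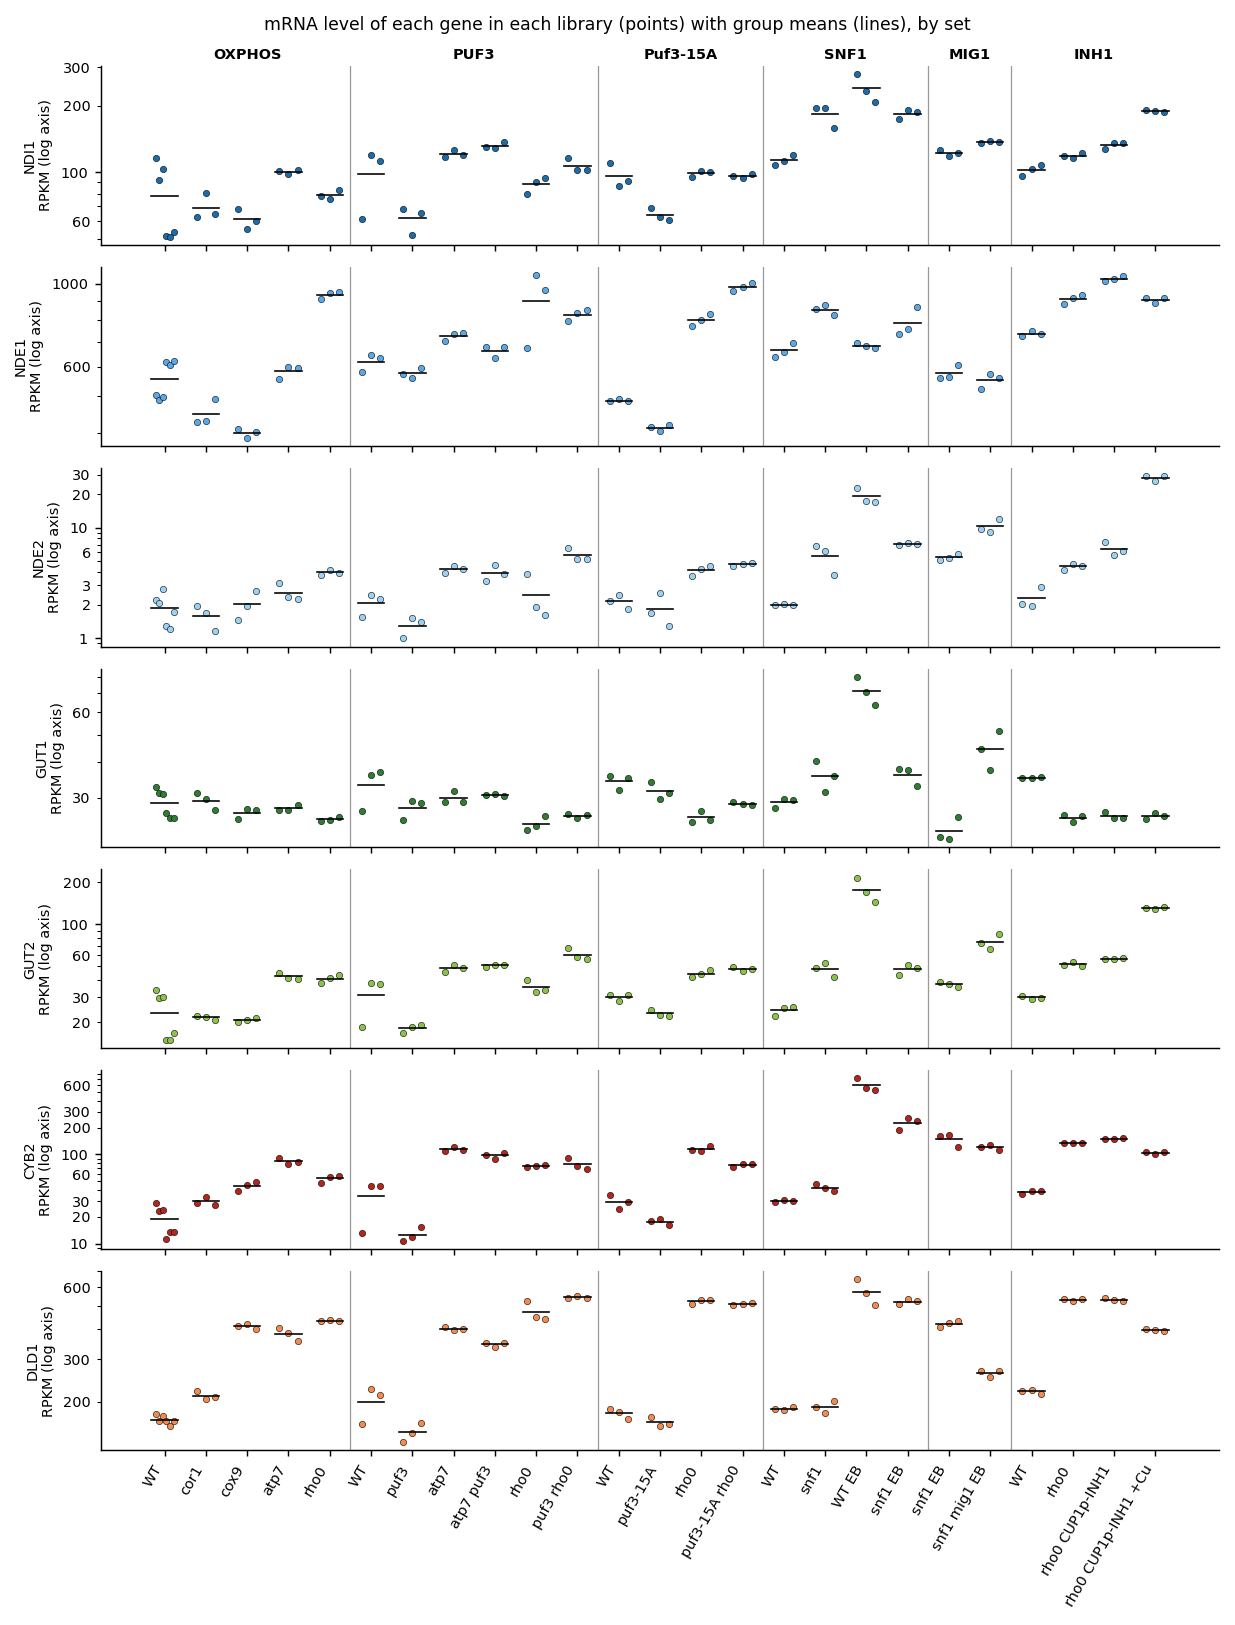
mRNA level of each gene in RPKM on a logarithmic axis, for every library (points) with the group mean (line), by set along the horizontal axis. GUT2, CYB2, NDE2 and NDI1 peak in EB-treated WT or in the copper-treated group, while NDE1 stays between 387.8 and 1057 RPKM.

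Wild-type libraries were not uniform, and several changes depend on which were used. In the OXPHOS set, WT libraries 1 to 3 had 116, 92.1 and 103.5 RPKM of NDI1, and libraries 4 to 6 had 51.2, 51.0 and 53.4. The trios also stood apart for GUT2, with means of 31.2 ± 2.40 and 15.5 ± 1.03 RPKM (SD, n = 3 each), and for CYB2, with 25.3 ± 2.98 and 12.8 ± 1.27. NDE1 went the other way, with 497.1 ± 8.06 and 616.4 ± 7.30 RPKM, while DLD1 overlapped at 172.3 ± 6.02 and 163.4 ± 4.92. The labels give no reason for the 2 trios. The rows of the files for libraries 1 to 3 are in the same order as those of cor1, and the rows for 4 to 6 in the order of rho0, while the files of cox9 and of atp7 each have an order of their own. Values against a trio are given below where they change a call, or where a called change differs between the trios by over 1.5 times. In the PUF3 set, WT library 1 had 61.5 RPKM of NDI1, 18.3 of GUT2 and 13.1 of CYB2, against 112.4 to 120.0, 37.7 to 38.3 and 44.2 to 44.7 in libraries 2 and 3. That library was also low for DLD1, at 161.4 against 212.2 and 225.3 RPKM.

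The first comparison asked how loss of a single respiratory complex changed the cells. All changes below are on the log2(RPKM + 1) scale after rescaling libraries within a set, as change with standard error (SE), and adjusted p-values are from limma over all genes tested at a threshold of 0.05. Against the 6 pooled WT libraries DLD1 rose in cor1, cox9, atp7 and rho0 cells, CYB2 rose in all but cor1, and no NADH dehydrogenase rose in cor1, cox9 or atp7. These 4 comparisons share the WT libraries. The a-specific genes were called higher for 4 of 7 in cor1, 4 in cox9, 7 in atp7 and 2 in rho0, with sums of 1708 to 2613 RPKM in the mutants and 1249 to 2096 in WT. The haploid-specific genes were called higher for 4 of 5 in cor1, cox9 and atp7. The part of these differences in the members' changes was not tested.

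In cor1 cells, 1 of the 7 genes was called, where 6.22% of all genes were. DLD1, the D-lactate dehydrogenase, had 220.5, 204.9 and 209.6 RPKM in cor1 and a lowest, median and highest value of 157.7, 166.2 and 177.2 in WT. Every cor1 library was above every WT library, and the change was 0.34 (SE 0.04, adjusted p = 5.8e-05). CYB2 had 28.5, 33.7 and 27.3 RPKM against 11.3 to 28.7 in WT and missed the threshold at 0.70 (SE 0.21, adjusted p = 0.057). Against WT libraries 4 to 6 alone 6 members were called, and NDI1 and GUT2, which fell against libraries 1 to 3 by 0.55 and 0.48, were called higher by 0.37 and 0.43. The 6.22% is from the fit with all 6 WT libraries, where 420 genes were called. Over all alternatives that number ran from 140 to 2840, so the 6 members cannot be set against 6.22%. CYB2 was at 0.26 (not called) against libraries 1 to 3 and 1.14 (called) against 4 to 6, and NDE1 at -0.12 (not called) and -0.49 (called). GUT1 was at -0.08 (not called) and 0.14 (called).

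In cox9 cells 3 members were called, where 6.62% of all genes were. DLD1 had 413.0, 419.4 and 402.4 RPKM and rose by 1.29 (SE 0.04, 2.44-fold, adjusted p = 1.7e-12), the second smallest p of all genes. CYB2, with 39.3, 45.3 and 49.7 RPKM, rose by 1.27 (SE 0.21, adjusted p = 0.0011), by 0.83 against WT libraries 1 to 3 and by 1.70 against 4 to 6. NDE1, the main external NADH dehydrogenase, fell to 409.2, 387.8 and 402.2 RPKM, below all WT libraries, with a change of -0.47 (SE 0.09, adjusted p = 0.0049). NDE1 fell against either trio, by 0.28 and 0.66, but missed the threshold with only cox9 and WT in the fit (adjusted p = 0.056, and 5.3e-07 to 0.056 over all alternatives). Against WT libraries 1 to 3, 6 members were called, as NDI1 (-0.72), GUT2 (-0.55) and GUT1 (-0.21) were also lower. The 6.62% is from the fit with all 6 WT libraries, where 447 genes were called. Over all alternatives that number ran from 217 to 2871, so the 6 members cannot be set against 6.62%. Against libraries 4 to 6 GUT2 was called higher by 0.36, and NDI1 (0.20, adjusted p = 0.076) and GUT1 (0.01) were not called.

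In atp7 cells 3 members were called, where 45.3% of all genes were. CYB2 reached 92.4, 78.4 and 82.8 RPKM and rose by 2.08 (SE 0.21, 4.22-fold, adjusted p = 1.3e-06), the largest change of a member in this set. The rise of CYB2 was 1.65 against WT libraries 1 to 3 and 2.51 against 4 to 6. DLD1 rose by 1.09 (SE 0.04) to 406.0, 385.7 and 359.4 RPKM, and GUT2, the glycerol 3-phosphate dehydrogenase, by 0.82 (SE 0.20, adjusted p = 0.0043) to 45.1, 41.4 and 40.7 RPKM. GUT2 rose against both trios, by 0.38 and 1.27. NDI1 had 98.4 to 102.2 RPKM, close to WT libraries 1 to 3 and above 4 to 6, and its change of 0.35 (SE 0.21, adjusted p = 0.19) was not called. It was -0.10, not called, against libraries 1 to 3 and 0.81 (adjusted p = 9.2e-07) against 4 to 6, and the adjusted p ran from 9.2e-07 to 0.47 over all alternatives. NDE1 was called higher by 0.17 against libraries 1 to 3 and lower by 0.21 against 4 to 6. GUT1 was called against libraries 1 to 3 (-0.25), and NDE2 against 4 to 6 (0.48).

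**Figure D2:**
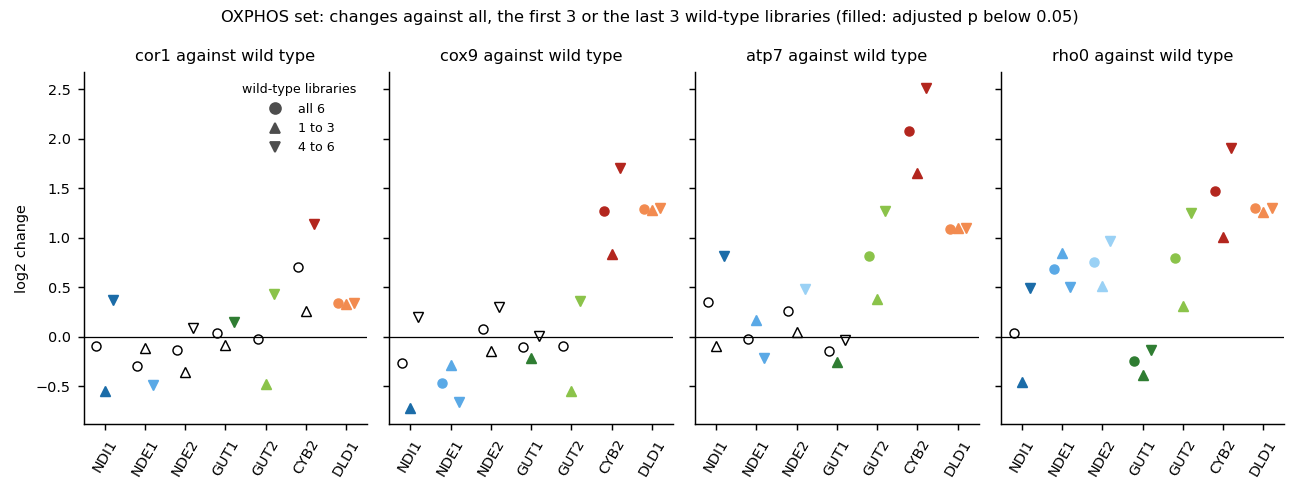
log2 change of each gene in cor1, cox9, atp7 and rho0 cells of the OXPHOS set against all 6 WT libraries (circles), libraries 1 to 3 (upward triangles) or 4 to 6 (downward triangles); filled symbols have an adjusted p below 0.05. DLD1 lies at nearly the same height for every choice, whereas NDI1 in rho0 moves from -0.45 to 0.49.

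Rho0 was compared with WT in 4 mRNA sets with separate libraries, so the change of each gene has 4 estimates. In the INH1 and PUF3 sets all 7 a-specific and all 5 haploid-specific genes were also called higher in rho0. Loss of mitochondrial DNA and that difference cannot be told apart in these sets. CYB2 and DLD1 rose, and GUT1 fell, in all 4 sets. NDE1 also rose in all 4, NDE2 and GUT2 rose in 3, and NDI1 was called in none. With only rho0 and WT of the PUF3 set in the fit, the calls there of CYB2 (adjusted p = 0.093), GUT1 (0.053) and NDE1 (0.13) were lost, while over all alternatives their lowest values were 0.00018, 0.00017 and 7.6e-08. In the OXPHOS set 6 of 7 members were called against 48.8% of all genes, in the Puf3-15A set 6 against 54.7%, in the INH1 set 6 against 70.4%, and in the PUF3 set 4 against 39.0%.

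DLD1 was at 432.0, 436.0 and 432.3 RPKM in rho0 of the OXPHOS set, 512.7, 529.0 and 529.8 in the Puf3-15A set and 535.0, 525.9 and 535.2 in the INH1 set. Rho0 libraries of the PUF3 set had 527.4, 451.5 and 443.7 RPKM of DLD1, and no rho0 library of any set overlapped the WT libraries, whose highest value was 225.3 RPKM. Its change was 1.30 (SE 0.04), 1.53 (SE 0.04), 1.16 (SE 0.02) and, in the PUF3 set, 1.27 (SE 0.08). Of the 7 members, DLD1 was the 1 whose rho0 change differed between the sets, with an F of 7.51 and an adjusted p of 0.013, where 19.6% of all genes were called. Over the alternatives 0 to 3 members differed between sets, and which WT libraries of the OXPHOS set were used moved the count to 2 or 3.

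CYB2 rose by 1.47 (SE 0.21) in the OXPHOS set, 1.30 (SE 0.29) in the PUF3 set, 1.91 (SE 0.10) in the Puf3-15A set and 1.69 (SE 0.04) in the INH1 set. In the INH1 set the 3 rho0 libraries had 133.4, 134.0 and 136.0 RPKM against 35.6, 39.1 and 39.4 in WT, a 3.22-fold difference with no overlap. Without WT library 1 of the PUF3 set its change there was 0.78. The estimate from the OXPHOS set was 1.01 or 1.91 by trio.

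The external NADH dehydrogenases both rose but at very different levels. NDE1 went from 484.6, 490.8 and 485.2 RPKM in WT to 773.1, 800.0 and 830.0 in rho0 of the Puf3-15A set, a change of 0.70 (SE 0.03, adjusted p = 6.5e-09) with no overlap. It rose by 0.69 (SE 0.09) in the OXPHOS set (0.84 and 0.50 by trio), 0.52 (SE 0.13) in the PUF3 set and 0.20 (SE 0.03) in the INH1 set. Library 1 of rho0 in the PUF3 set stood apart at 673.4 RPKM against 1057 and 964.1, and without it the change was 0.75. NDE2 rose by 0.75 (SE 0.17), 0.68 (SE 0.18) and 0.66 (SE 0.12) in the OXPHOS, Puf3-15A and INH1 sets, for example from 2.19, 2.44 and 1.84 to 3.64, 4.22 and 4.47 RPKM in the Puf3-15A set. In the PUF3 set its 3 rho0 libraries had 3.82, 1.897 and 1.62 RPKM, overlapping WT, and the change of 0.13 (SE 0.19) was not called.

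NDI1, the internal enzyme, was 95.5, 101.5 and 100.4 RPKM in rho0 of the Puf3-15A set and 109.7, 86.5 and 91.2 in WT. The groups overlapped, and the change of 0.04 had a 95% interval of -0.11 to 0.19, though without WT library 1 it was called at 0.13. In the INH1 set it was 0.10 (interval 0.01 to 0.20, adjusted p = 0.051), and under 4 of the other settings and with 1 library left out (WT 3 or rho0 2) it was called higher. In the OXPHOS set the pooled change of 0.03 was -0.45 against WT libraries 1 to 3 and 0.49 against 4 to 6, both called. In the PUF3 set it was -0.09 (SE 0.16), and -0.34 without WT library 1, which was called.

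The 2 glycerol genes moved in opposite directions. GUT1, the glycerol kinase, had 35.2, 35.3 and 35.5 RPKM in WT and 26.2, 24.7 and 25.9 in rho0 of the INH1 set, without overlap, and fell by 0.56 (SE 0.04, adjusted p = 3.6e-08). It fell by 0.24 (SE 0.07) in the OXPHOS set, 0.41 (SE 0.08) in the PUF3 set and 0.43 (SE 0.06) in the Puf3-15A set. In the OXPHOS set the deposited values overlapped WT libraries 4 to 6, and without rescaling the call was lost (-0.18, adjusted p = 0.072, and 3.2e-05 to 0.072 over all alternatives). GUT2 rose by 0.79 (SE 0.20), 0.51 (SE 0.06) and 0.66 (SE 0.03) in the OXPHOS, Puf3-15A and INH1 sets, and by 0.31 and 1.25 in the OXPHOS set by trio. The trio values there were 0.51 and 0.97 for NDE2 and -0.38 and -0.13 for GUT1, all called. In the INH1 set it went from 30.6, 29.4 and 29.97 to 51.4, 53.8 and 49.99 RPKM, and GUT2 over GUT1 within a library went from 0.833 to 0.870 in WT to 1.93 to 2.18 in rho0. In the PUF3 set GUT2 was not called at 0.25 (SE 0.16), and at -0.04 without WT library 1. WT and rho0 of the INH1 and PUF3 sets also differed in the mating-type and haploid markers given above, and WT and rho0 of the Puf3-15A set had a-specific sums of 2765 to 2935 and 2522 to 2646 RPKM.

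**Figure D3:**
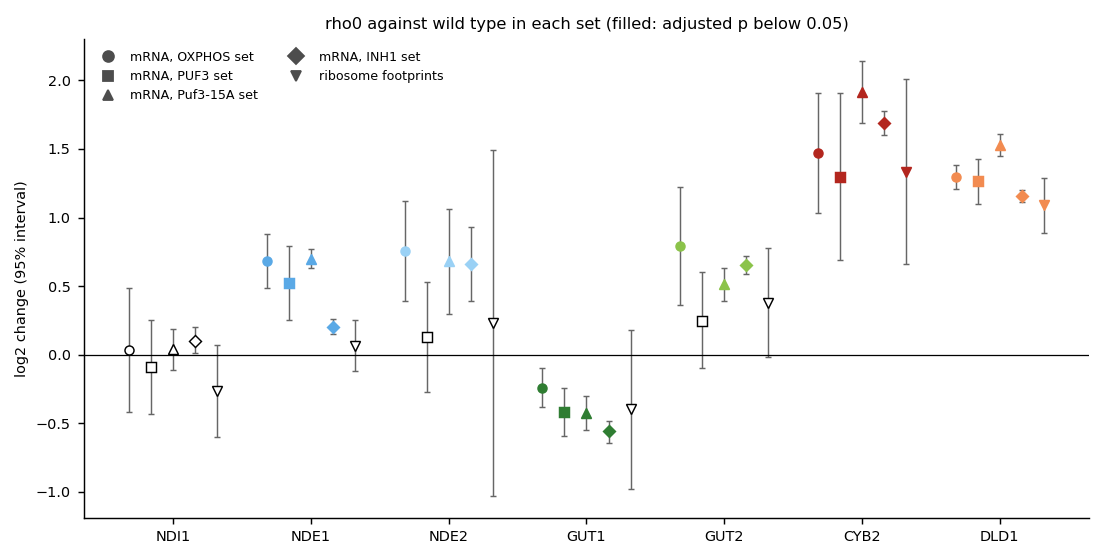
log2 change in rho0 against WT for each gene in the 4 mRNA sets and the footprint set, with 95% intervals; filled symbols have an adjusted p below 0.05. CYB2 and DLD1 are above 1 in every set, GUT1 is below 0, and NDI1 is near 0 in the mRNA sets.

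Rho0 and atp7 cells of the OXPHOS set were compared directly. Of the members 2 were called, where 30.6% of all genes were. NDE1 was higher in rho0, at 909.9 to 949.0 RPKM against 554.9 to 599.9 in atp7, by 0.71 (SE 0.11, adjusted p = 0.00022), and DLD1 by 0.21 (SE 0.05, adjusted p = 0.0038). CYB2 was lower in rho0 without overlap, at 48.3 to 57.9 against 78.4 to 92.4 RPKM, but the change of -0.61 (SE 0.24, adjusted p = 0.067) missed the threshold. It was called under 4 alternatives, and its adjusted p ran from 0.00083 to 0.17 over all of them. Of the members 5 were called in the PUF3 set in atp7 against WT, where 54.6% of all genes were: CYB2 rose by 1.82 (SE 0.29), DLD1 by 0.93 (SE 0.08), NDE2 by 0.70 (SE 0.19) and GUT2 by 0.60 (SE 0.16), and GUT1 fell by 0.22 (SE 0.08). The GUT1 call was lost when any of 4 of the 6 libraries was left out (WT 2 or 3, atp7 1 or 3). Without WT library 1 the change of GUT2 was 0.31, still called. With only the compared groups in the fit GUT2 (adjusted p = 0.081, and 0.0016 to 0.081 over all alternatives) was lost, and NDI1 was called without WT library 2 (0.43). All 7 a-specific and all 5 haploid-specific genes were called higher in these atp7 cells, with a-specific sums of 2466 to 2602 RPKM against 566.4 to 830.5 in WT.

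The genes around these enzymes are given by lists, whose counts stand against the 48.8% of all genes called in rho0 and the 45.3% in atp7. Of 9 genes of glycerol formation and uptake, 5 rose and 1 fell in rho0 of the OXPHOS set, with a list median of 0.35 against 0.00 for all genes. HOR2, a glycerol 3-phosphatase, rose by 1.17 (SE 0.07), GCY1, a glycerol dehydrogenase, by 0.99 (SE 0.12), and GPD2, a glycerol 3-phosphate dehydrogenase of the cytosol, by 0.60 (SE 0.12), while FPS1, the glycerol channel, fell by 0.14 (SE 0.04). In atp7 cells 3 of these genes rose and 1 fell, a share near that of all genes. Of 6 genes for cytochrome c and its partners, 5 rose and 1 fell in rho0, with CYC3, the heme lyase of cytochrome c, up by 1.34 (SE 0.08), CYC1, its main isoform, up by 0.73 (SE 0.06), and CYT1, cytochrome c1 of complex III, down by 0.41 (SE 0.07).

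Of 13 genes of NADH shuttles and carriers, 3 rose and 3 fell in rho0 of the OXPHOS set, again a share near that of all genes, with AAT2, the cytosolic aspartate aminotransferase, up by 0.73 (SE 0.03) and OAC1, the oxaloacetate carrier, down by 0.55 (SE 0.09). Of 10 genes of succinate, proline and lactate oxidation 6 rose and 1 fell: PUT1, proline oxidase, rose by 0.83 (SE 0.10), DLD2, a D-2-hydroxyglutarate dehydrogenase, by 0.31 (SE 0.04), and SDH1, the flavoprotein of complex II, fell by 0.67 (SE 0.17). Of 18 regulators 9 rose and 2 fell, among them HAP4, the activator subunit of the Hap complex, up by 1.11 (SE 0.16), and HAP5, a DNA-binding subunit, up by 0.77 (SE 0.09).

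EB-treated WT cells were compared with untreated WT in the SNF1 set. Of the 7 members 6 rose, where 72.0% of all genes were called, and NDE1 was not called. CYB2 went from 29.4, 30.6 and 30.4 RPKM to 713.3, 556.2 and 522.1, with a change of 4.32 (SE 0.13, adjusted p = 5.7e-11). GUT2 went from 22.2, 25.4 and 25.6 to 215.8, 171.0 and 143.3 RPKM, a change of 2.86 (SE 0.13, 7.26-fold), and NDE2 from 2.02, 2.03 and 2.00 to 22.5, 17.5 and 17.2 RPKM, a change of 2.81 (SE 0.16). All treated libraries were above all untreated ones for these genes.

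DLD1 rose by 1.67 (SE 0.10), to 647.7, 567.1 and 503.6 RPKM, and NDI1 by 1.14 (SE 0.10), from 108.1, 112.4 and 119.3 to 279.1, 234.1 and 208.3 RPKM. GUT1, which fell in rho0 against WT in all 4 mRNA sets, rose here from 27.6, 29.8 and 29.5 to 80.1, 70.9 and 63.8 RPKM, by 1.34 (SE 0.10, adjusted p = 7e-08). NDE1 had 694.9, 682.6 and 673.6 RPKM against 638.6, 656.3 and 695.3, overlapping on the deposited scale, and its change of 0.11 had an interval of -0.05 to 0.28. Within libraries DLD1 was 6.03 to 6.32 times CYB2 in WT and 0.908 to 1.02 times in treated WT. The file headers call the EB libraries rho0, but EB and rho0 groups come from different sets, and the difference between their changes was not tested.

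The next comparison asked how much of this needed SNF1. In untreated cells lacking SNF1, 4 members rose, where 29.1% of all genes were called. NDE2 went to 6.79, 6.12 and 3.70 RPKM, a change of 0.97 (SE 0.16, adjusted p = 0.00094), GUT2 to 48.6, 52.7 and 42.3 RPKM, a change of 0.81 (SE 0.13), and NDI1 to 195.6, 195.8 and 158.3 RPKM, a change of 0.55 (SE 0.10). NDE1 rose by 0.22 (SE 0.08, adjusted p = 0.044), a call that was lost when any of 5 of the 6 libraries was left out (all but snf1 1), with adjusted p up to 0.13. In treated cells 6 members were lower in snf1 than in WT, where 61.0% of all genes were called, and NDI1, NDE2 and GUT2 were thus called higher in untreated and lower in treated snf1. GUT2 was at 43.6, 50.9 and 48.4 RPKM in treated snf1, a change of -2.12 (SE 0.13, adjusted p = 5e-08) from treated WT, followed by CYB2 at -1.66 (SE 0.13), NDE2 at -1.55 (SE 0.16), GUT1 at -1.22 (SE 0.10), NDI1 at -0.64 (SE 0.10) and DLD1 at -0.39 (SE 0.10). Rescaling matters here: without it the median of all genes moved by 0.23, DLD1 was not called (-0.12, adjusted p = 0.18, and 0.00082 to 0.18 over all alternatives), and NDE1 was called higher in snf1 by 0.20 instead of -0.07.

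Within snf1 cells EB raised only CYB2 and DLD1 among the members, where 58.9% of all genes were called. CYB2 went from 47.3, 42.0 and 38.5 to 186.8, 256.2 and 237.0 RPKM, by 2.32 (SE 0.13, 4.98-fold), and DLD1 from 190.5, 178.4 and 201.3 to 509.3, 535.6 and 523.8 RPKM, by 1.40 (SE 0.10). GUT2 was 48.6, 52.7 and 42.3 RPKM before and 43.6, 50.9 and 48.4 after treatment, with overlap, and its change of -0.06 had an interval of -0.35 to 0.23. The intervals were -0.27 to 0.17 for NDI1, -0.26 to 0.17 for GUT1 and -0.07 to 0.64 for NDE2. NDE1 changed by -0.18 (SE 0.08, adjusted p = 0.056), and with the replicate number as a block it was called lower (adjusted p = 0.043, and 0.0091 to 0.23 over all alternatives).

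The difference between the EB changes of snf1 and WT was called for 6 members, where 46.2% of all genes were. It was -2.92 (SE 0.19) for GUT2, -2.52 (SE 0.23) for NDE2, -2.004 (SE 0.19) for CYB2, -1.38 (SE 0.14) for GUT1 and -1.19 (SE 0.14) for NDI1. For DLD1 it was -0.28 (SE 0.13, interval -0.57 to 0.01, adjusted p = 0.11) and was not called, though it was without treated WT library 3 (-0.37). For NDE1 it was -0.29 (SE 0.11, adjusted p = 0.04), a call lost when any of 10 of the 12 libraries was left out, the exceptions being snf1 1 and treated snf1 3. Both snf1 groups had a-specific sums of 22.9 to 42.3 RPKM, against 2257 to 2455 RPKM in untreated and 1173 to 1348 in treated WT, and haploid-gene sums of 41.6 to 51.8 against 347.3 to 538.4 RPKM. Their part in the SNF1 comparisons was not tested.

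**Figure D4:**
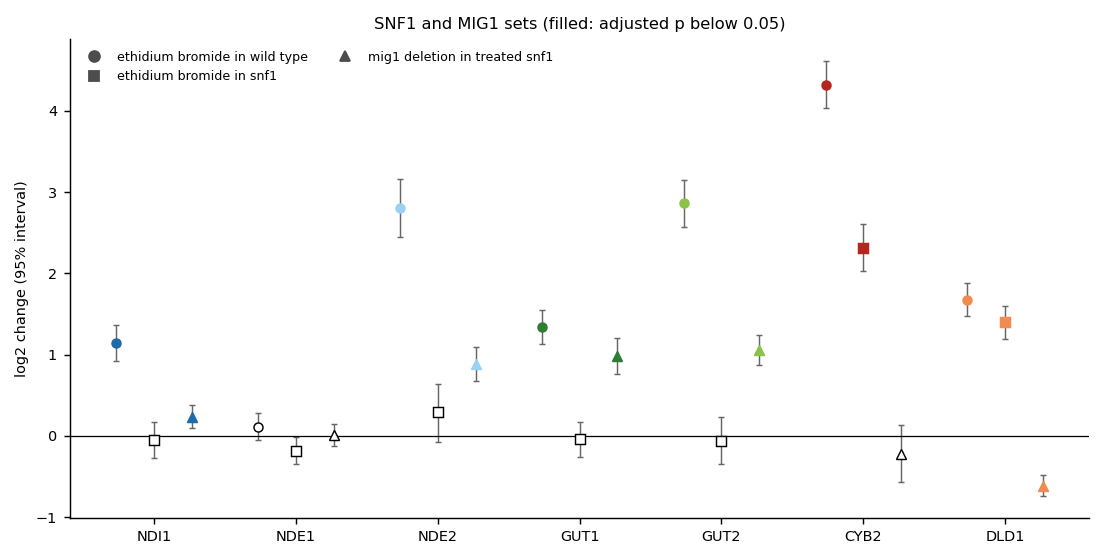
log2 change of each gene with EB in WT (circles), with EB in snf1 (squares) and with deletion of MIG1 in EB-treated snf1 (triangles), with 95% intervals; filled symbols have an adjusted p below 0.05. In snf1, EB leaves CYB2 at 2.32 and DLD1 at 1.40 while GUT1, GUT2 and NDI1 are near 0.

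The neighbouring genes are given against the 72.0% of all genes called with EB in WT and the 61.0% called between treated snf1 and treated WT. Of 9 genes of glycerol formation and uptake 7 rose and 1 fell in treated WT, with a median of 0.72, and 0 rose and 6 fell in treated snf1 against treated WT. GCY1 rose by 3.43 (SE 0.18) and DAK2, a dihydroxyacetone kinase, by 2.37 (SE 0.13), and GPD1, the other cytosolic glycerol 3-phosphate dehydrogenase, by 1.35 (SE 0.10). Of 6 genes for cytochrome c and its partners 4 rose, led by CYC7, the minor isoform of cytochrome c, at 4.29 (SE 0.21). Of 10 genes of succinate, proline and lactate oxidation 7 rose, among them PUT1 at 1.61 (SE 0.22), SDH4, a membrane anchor of complex II, at 0.94 (SE 0.08) and JEN1, the lactate permease, at 1.05 (SE 0.17). Of 13 genes of NADH shuttles and carriers 5 rose and 3 fell, including AAT1, the mitochondrial aspartate aminotransferase, at -1.70 (SE 0.08), and OAC1 at -1.97 (SE 0.07). Of 17 regulators tested 13 rose and 3 fell. CAT8, an activator of gluconeogenic genes, rose by 2.37 (SE 0.12), SIP4, another activator of gluconeogenic genes, by 1.71 (SE 0.13), and INO2, an activator of phospholipid genes, fell by 1.66 (SE 0.11).

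Deletion of MIG1, which encodes a glucose repressor acting downstream of Snf1, was examined in EB-treated snf1 cells. Of the members 4 rose and 1 fell, where 30.8% of all genes were called. GUT2 went from 38.5, 37.5 and 35.9 to 73.8, 66.7 and 85.4 RPKM, by 1.06 (SE 0.08, adjusted p = 0.00019), GUT1 from 21.9, 21.5 and 25.8 to 44.7, 37.6 and 51.6 RPKM, by 0.98 (SE 0.10), and NDE2 from 5.13, 5.26 and 5.71 to 9.78, 9.14 and 12.0 RPKM, by 0.88 (SE 0.09). The groups did not overlap for any of the 3. DLD1 fell by 0.61 (SE 0.06, adjusted p = 0.00047), from 410.0, 423.7 and 434.4 to 268.5, 254.3 and 267.8 RPKM.

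NDI1 rose by 0.24 (SE 0.06, adjusted p = 0.023), from 118.3 to 125.7 RPKM to 136.2 to 138.4 RPKM, a call lost without snf1 library 2 or 3 or snf1 mig1 library 1 or 2 (adjusted p up to 0.085). CYB2 had 159.4, 167.0 and 120.3 RPKM against 120.9, 129.3 and 111.8, which overlapped, with a change of -0.22 (SE 0.15, adjusted p = 0.3). With the replicate number as a block it was called lower (adjusted p = 0.042), and so it was without snf1 library 3 (-0.39), while the adjusted p ran from 0.024 to 0.63 over all alternatives. NDE1 was level at 0.01, with an interval of -0.13 to 0.15. Against the 30.8% of all genes called, 5 of 9 glycerol genes rose and 1 fell, with DAK2 at 1.88 (SE 0.10). Of 10 genes of succinate, proline and lactate oxidation 6 rose and 1 fell. Of 16 regulators tested, SNF1 and MIG1 being left out, 6 rose and 5 fell. ADR1, an activator of glycerol and ethanol use, was at 1.30 (SE 0.05). Both groups of this set had a-specific sums of 21.8 to 30.7 RPKM.

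The INH1 set asked what overexpression of INH1 did in rho0 cells. INH1 itself was at 77.6 ± 2.17 RPKM in rho0, 295.2 ± 7.75 in rho0 CUP1p-INH1 without copper and 1931 ± 22.2 with copper (SD, n = 3 each), so the construct was already active without added copper. With copper NDI1, NDE2 and GUT2 rose and NDE1, CYB2 and DLD1 fell against the same strain without it, where 71.6% of all genes were called. Since no copper-treated library lacked the construct, copper and INH1 cannot be told apart.

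NDE2 had 7.37, 5.60 and 6.12 RPKM without and 29.3, 26.2 and 29.0 RPKM with copper, its highest level in any group, a change of 1.92 (SE 0.12, 3.79-fold, adjusted p = 2.2e-08). GUT2 went from 56.1, 56.3 and 57.7 to 131.5, 129.5 and 132.6 RPKM, by 1.13 (SE 0.03, 2.18-fold), and NDI1 from 127.6, 135.5 and 136.4 to 190.7, 189.3 and 187.4 RPKM, by 0.43 (SE 0.04). The copper libraries lay above all others of the set for these genes. NDE1 over NDE2 within a library was 31.2 to 34.1 with copper, whereas it was 138 to 184 in the same strain without copper and 194 to 214 in plain rho0.

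CYB2 fell from 147.4, 150.7 and 154.0 to 106.5, 101.0 and 107.5 RPKM, by 0.59 (SE 0.04), and DLD1 from 539.6, 529.3 and 526.4 to 400.1, 398.2 and 395.3 RPKM, by 0.49 (SE 0.02). NDE1 fell by 0.26 (SE 0.03), from 1016, 1032 and 1048 to 914.3, 890.9 and 917.7 RPKM. GUT1 had 26.8, 25.6 and 25.6 RPKM without and 25.3, 26.6 and 25.9 with copper, and its change of -0.07 had an interval of -0.15 to 0.01. Against the 71.6% of all genes called with copper, 9 of 10 genes of succinate, proline and lactate oxidation rose and 1 fell, with SDH2, the iron-sulfur subunit of complex II, up by 1.16 (SE 0.03). Of 13 shuttle genes 7 rose and 4 fell, with MDH1, mitochondrial malate dehydrogenase, up by 0.99 (SE 0.03). The a-specific sum was 1100 to 1165 RPKM with copper and 1976 to 2088 without, 6 of the 7 a-specific genes were called lower, and the part of this was not tested.

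The construct without copper was compared with plain rho0. Of the members 5 rose, where 17.7% of all genes were called, and all changes were small. NDE1 rose by 0.17 (SE 0.03, adjusted p = 0.00099). NDE2 at 0.42 (SE 0.12), NDI1 at 0.16 (SE 0.04), CYB2 at 0.16 (SE 0.04) and GUT2 at 0.12 (SE 0.03) each lost the call when single libraries were left out, 5, 4, 4 and 3 of the 6 respectively, and with any library left out 1 to 4 members were called. The count was 1 without rho0 library 1 or CUP1p-INH1 library 3, 2 without rho0 library 2, and 3 without rho0 library 3 or CUP1p-INH1 library 2.

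**Figure D5:**
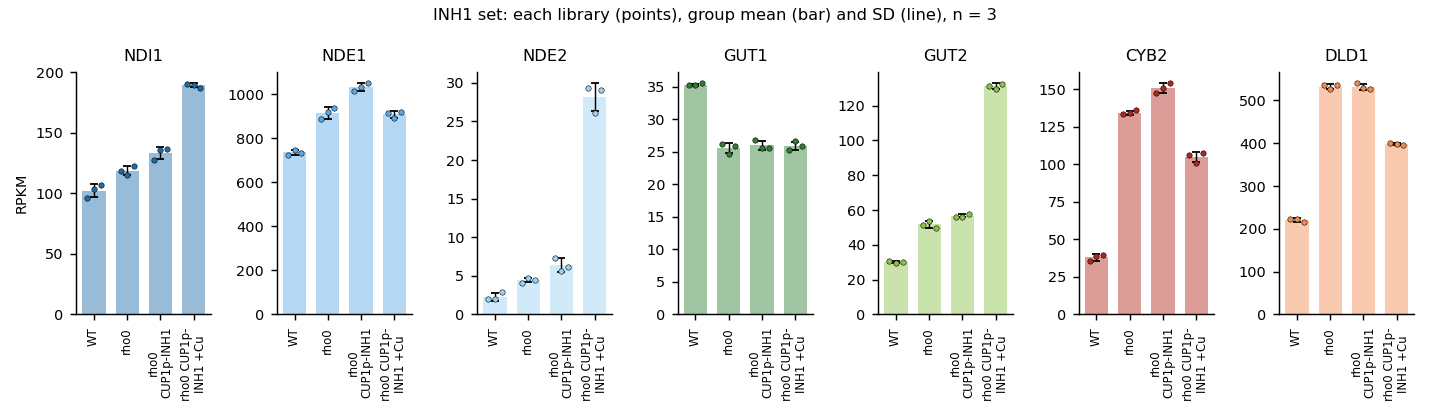
mRNA level of each gene in RPKM in the 4 groups of the INH1 set; points are the 3 libraries, bars the mean and error bars the SD. With copper NDE2 rises to 26.2 to 29.3 RPKM and GUT2 to 129.5 to 132.6, while CYB2 and DLD1 fall.

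Deletion of PUF3 and the puf3-15A allele were each examined in WT and in rho0 cells, and the deletion also in atp7 cells. In the WT background, NDI1, GUT2 and CYB2 were called lower with both. The puf3 calls depended on single libraries and on the other groups in the fit. Of the members 4 fell in the PUF3 set, where 15.6% of all genes were called. CYB2 had 10.7, 11.8 and 15.3 RPKM in puf3 and fell by 1.15 (SE 0.29, adjusted p = 0.016), GUT2 had 16.7, 18.5 and 19.0 and fell by 0.65 (SE 0.16), and NDI1 had 68.0, 51.9 and 65.3 and fell by 0.56 (SE 0.16). WT library 1, described above, lay within the puf3 range for all 3 on the deposited scale. DLD1 fell by 0.36 (SE 0.08), from 161.4 to 225.3 RPKM to 135.6 to 163.3.

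These calls depended on single libraries. Without WT library 1 the changes were -1.66 for CYB2, -0.93 for GUT2 and -0.81 for NDI1, and GUT1 was also called lower. Without WT library 2 they were -0.89, -0.49 and -0.40, without WT library 3 -0.89, -0.51 and -0.46, and without puf3 library 2 -1.12, -0.67 and -0.44, and none of these passed. NDI1 also missed without puf3 library 3 (-0.60). With only WT and puf3 in the fit, 0 members were called. The a-specific sum was 566.4 to 830.5 RPKM in WT and 2187 to 2538 in puf3, and the haploid sum 149.5 to 184.6 and 513.1 to 524.3. All 7 a-specific and all 5 haploid-specific genes were called higher in puf3, and their part was not tested.

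In the Puf3-15A set 4 members fell in puf3-15A cells, where 13.8% of all genes were called. CYB2 went from 34.9, 24.5 and 29.3 to 17.95, 18.96 and 16.1 RPKM, by -0.66 (SE 0.10, adjusted p = 0.0012). NDI1 went from 109.7, 86.5 and 91.2 to 68.9, 62.6 and 60.6 RPKM, by -0.53 (SE 0.07), GUT2 by -0.34 (SE 0.06) and NDE1 by -0.20 (SE 0.03). No library overlapped between the groups for these genes. DLD1 was at -0.09 (SE 0.04, adjusted p = 0.16), with overlap, and was called lower without WT library 3.

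In rho0 cells the same mutations gave other changes. Of the members NDE2 and GUT2 rose in puf3 rho0 against rho0, where 30.5% of all genes were called. NDE2 had 6.48, 5.14 and 5.23 RPKM against 3.82, 1.897 and 1.62 and rose by 0.96 (SE 0.19, adjusted p = 0.0016), and GUT2 had 67.3, 58.1 and 56.3 against 40.1, 32.7 and 33.7 and rose by 0.71 (SE 0.16). Without rho0 library 1, NDE1 was called lower by 0.36. In puf3-15A rho0 against rho0, NDE1 and GUT1 rose and CYB2 fell, where 18.0% of all genes were called. NDE1 had 959.4, 978.5 and 1003 RPKM against 773.1, 800.0 and 830.0, by 0.34 (SE 0.03, adjusted p = 1.2e-05), and CYB2 had 71.9, 77.8 and 79.1 against 110.9, 108.1 and 124.3, by -0.53 (SE 0.10). The rise of GUT1, 0.19 (SE 0.06, adjusted p = 0.034), was lost when any library but rho0 2 was left out.

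The differences between the effects in rho0 and in WT cells were tested. For puf3 they were called for 5 members, where 36.9% of all genes were: GUT2 at 1.36 (SE 0.23), NDE2 at 1.35 (SE 0.27), CYB2 at 1.15 (SE 0.41), NDI1 at 0.79 (SE 0.23) and DLD1 at 0.51 (SE 0.11), all higher in rho0 than in WT. CYB2 (adjusted p = 0.036) was lost in 9 of the 12 cases with a library left out, all but WT 1, puf3 3 and puf3 rho0 3, with adjusted p up to 0.1. For puf3-15A they were called for 4 members, where 18.8% of all genes were: NDE1 at 0.54 (SE 0.05), NDI1 at 0.54 (SE 0.10), GUT2 at 0.51 (SE 0.08) and GUT1 at 0.27 (SE 0.08). GUT1 (adjusted p = 0.036) was lost in 9 of 12 such cases, all but WT 2, puf3-15A 1 and rho0 2.

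In atp7 cells deletion of PUF3 gave 0 calls among the members by limma, where 2.23% of all genes were called. At an unadjusted p below 0.05 there was 1, DLD1 at -0.19 (SE 0.08), and limma-voom on the recovered reads gave 0. CYB2 had 98.98, 90.0 and 105.2 RPKM against 109.1, 122.4 and 111.8 in atp7. The difference between the puf3 effect in atp7 and in WT was called for 0 members, where 7.44% of all genes were, with 4 at an unadjusted p below 0.05 and 1 by voom. Without WT library 1 it was called for 5 (CYB2 at 1.47, GUT2 at 1.03, NDI1 at 0.96, GUT1 at 0.36 and DLD1 at 0.27). The 7.44% is from the fit with all libraries, where 507 genes were called. Over all alternatives that number ran from 341 to 1787, so the 5 members cannot be set against 7.44%. For both differences that involve puf3 all 7 a-specific and all 5 haploid-specific genes were called lower, with medians of -2.10 and -1.97 in rho0 and -1.86 and -1.93 in atp7, and their part was not tested.

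Ribosome footprints, fragments of mRNA covered by ribosomes, measured ribosome occupancy as a share of each library. The groups had 2 libraries each, and NDE2 with 0 to 12 reads and GUT1 with 9 to 26 reads per library were too thinly covered to resolve small changes. CYB2 and DLD1 rose in rho0, where 24.7% of all genes were called. DLD1 had 138.0 and 135.9 RPKM in WT and 295.3 and 344.4 in rho0, a change of 1.09 (SE 0.09, adjusted p = 0.00042). CYB2 had 20.9 and 37.4 RPKM in WT and 65.6 and 93.7 in rho0, a change of 1.33 (SE 0.29, adjusted p = 0.015), lost without rho0 library 2 (1.11). WT footprints had a haploid-gene sum of 6.44 to 11.4 RPKM against 376 to 513 in the other groups, and the part of that difference was not tested.

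In puf3 footprints 0 members were called by limma, where 1.34% of all genes were, with 3 at an unadjusted p below 0.05 and 2 by voom. CYB2 had 9.35 and 8.41 RPKM, below both WT libraries, with a change of -1.57 (SE 0.29, adjusted p = 0.055, and 0.00034 to 0.3 over the alternatives), and without WT library 1 it was called (-2.02). In puf3 rho0 against rho0 0 members were called, where 4.54% of all genes were, with 2 at an unadjusted p below 0.05 and 2 by voom.

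Translational efficiency, the change of footprints over that of mRNA from the PUF3 set in 1 model, was called for 0 members in rho0, where 7.43% of all genes were, with 1 at an unadjusted p below 0.05 and 0 by voom. The markers were called in this comparison, 6 of 7 a-specific genes (median 2.90) and 5 of 5 haploid-specific genes (median 3.34) being higher, and their part was not tested. The member with that p was NDE1 at -0.46 (SE 0.20, adjusted p = 0.19), which was called at -0.69 without rho0 library 1 of the PUF3 set. For DLD1 the change was -0.17, with an interval of -0.46 to 0.11. In puf3 against WT 0 members were called, where 0.702% of all genes were, with 0 at an unadjusted p below 0.05 and 0 by voom, and again 6 of 7 a-specific and 5 of 5 haploid-specific genes were higher. In puf3 rho0 against rho0 DLD1 fell by 0.47 (SE 0.13, adjusted p = 0.048), where 7.20% of all genes were called. That call was lost in 13 of 20 alternatives and kept, among libraries left out, without footprint rho0 library 1 or PUF3 rho0 library 1. Without the latter NDE1 was called at 0.60.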

How the data were processed

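Poly(A) RNA (78 libraries) and ribosome footprints (8) of yeast were deposited by the authors as 1 RPKM table per library with 7126 features. Per the submitters' processing notes, STAR 2.6.1a, featureCounts and edgeR 3.28.1 were used with build R64, as was CASAVA 1.9. Names for 6048 identifiers came from RefSeq.

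Groups followed the labels. Within each set, RPKM were rescaled by trimmed means (30% of ratios, 5% of levels). Genes were kept where the number of libraries reaching 1 RPKM was no lower than the size of the smallest group, and tested on log2(RPKM + 1) with limma 3.58.1 (R 4.3.3, moderated, variance trend), all groups of a set in 1 fit, with Benjamini-Hochberg adjustment over all genes at 0.05 and 95% intervals. P-values measure the spread between these samples. A fold on this scale understates changes of low genes such as NDE2. The test was first checked on simulated data. Figures used Python 3.11.15 and matplotlib 3.10.9.

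Values were whole reads within 0.05 reads in at least 95.1% of cases, so limma-voom was run on recovered reads as an alternative, with other scalings, pseudocounts, filters, a replicate block and each library left out. Deviations of libraries with the same replicate number were correlated in all 3 pairs of some comparisons. These were PUF3 rho0 against WT (0.20 to 0.36), SNF1 snf1 with EB against without (0.10 to 0.40) and MIG1 (0.13 to 0.43). With 3 libraries per group these values are not independent, and they do not establish that samples were paired.

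The 7 members and the gene lists were chosen with earlier results of these data known. All 7 members passed the filter in every mRNA set. Genes were named by membership of the 7 or of a list. No sequence or promoter motif was analysed here.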

Additional observations from a re-analysis of the deposited data

Results flagged for a closer look

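3 sets tested whether an effect differed between backgrounds, and members whose difference passed limma's adjusted threshold of 0.05 are given on the log2 scale. The effect of puf3 was higher in rho0 than in WT for NDI1 (0.791), NDE2 (1.346), GUT2 (1.357), CYB2 (1.153) and DLD1 (0.512). The effect of puf3-15A was higher in rho0 than in WT for NDI1 (0.536), NDE1 (0.54), GUT1 (0.274) and GUT2 (0.509). The effect of EB was lower in snf1 than in WT for NDI1 (-1.188), NDE1 (-0.295), NDE2 (-2.52), GUT1 (-1.383), GUT2 (-2.923) and CYB2 (-2.004). Of all genes 36.9% were called for puf3, 18.8% for puf3-15A and 46.2% for EB. CYB2 for puf3, GUT1 for puf3-15A and NDE1 for EB lost the call in most cases with a library left out. The markers also differed in these comparisons, as given above, and their part was not tested. The rho0 change of DLD1 differed between the 4 mRNA sets (F of 7.51).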

How the results depend on the processing

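Of 3590 single-gene changes of members under an alternative, 3389 kept their side of the threshold without turning as a called value, 109 lost the call, 84 gained it and 8 turned direction where a value was called. In 111 settings the sign of an uncalled change differed. The 8 were NDI1 (0.367) and GUT2 (0.429) in cor1 and GUT2 (0.356) in cox9 with WT libraries 4 to 6, NDE1 in atp7 (0.173) and NDI1 in rho0 (-0.454) with WT libraries 1 to 3, the same 2 with the replicate block (0.164 and -0.425), and NDE1 in snf1 EB against WT EB without rescaling (0.196). With the block, only WT 1 to 3 share numbers with the mutants; the cause of the other turns was not tested. In the comparisons where deviations were correlated by replicate number, the block changed no call of a member beyond NDE1 in snf1 and CYB2 in MIG1, given above.

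Counts of members called moved by over 1.5 times in 60 of 552 settings. In cor1 (main count 1) they were 2 without rescaling, 2 with voom, 3 with the replicate block, 3 with WT 1 to 3 and 6 with WT 4 to 6. In cox9 (3) they were 6 with the block and 6 with WT 1 to 3, and in atp7 (3) they were 5, 5 and, with WT 4 to 6, 6. In rho0 against atp7 (2) they were 4 with pseudocount 5, 4 with voom, 4 with the block and 5 with only the compared groups. With only the compared groups, they were 0 for puf3 (4), 1 for PUF3 rho0 (4), 2 for atp7 puf3 (0), 3 for the puf3 by rho0 difference (5) and 1 for rho0 footprints (2). The puf3 by atp7 difference (0) had 1 with voom. Footprints of puf3 (0) had 1 without rescaling, 1 with a filter of 5 RPKM and 2 with voom, and those of puf3 rho0 (0) had 1 and, with voom, 2. Efficiency in puf3 rho0 (1) had 0 with median-ratio factors, no rescaling, voom, the block or separate weights. The difference of rho0 changes across sets (1) had 0 without rescaling, 2 with the block, 2 with WT 1 to 3 and 3 with WT 4 to 6.

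With each library left out in turn, counts ran from 1 to 3 in cor1, 1 to 5 in puf3, 0 to 5 for the puf3 by atp7 difference, 1 to 4 for CUP1p-INH1, 1 to 2 and 0 to 1 for rho0 and puf3 footprints, 0 to 1 and 0 to 2 for efficiency in rho0 and puf3 rho0, and 1 to 3 across sets.

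Counts over all genes ranged, over the alternatives, from 140 to 2840 in cor1 (main 420), 217 to 2871 in cox9 (447), 2213 to 4006 in atp7 (3058), 1399 to 3084 in rho0 against atp7 (2065), 152 to 2402 in puf3 (1066), 1221 to 3169 in PUF3 rho0 (2654), 122 to 518 in atp7 puf3 (152), 1287 to 2462 in puf3 rho0 (2077), 341 to 1787 for puf3 by atp7 (507), 422 to 1100 in puf3-15A (935), 770 to 1350 for its interaction (1272), 1285 to 2665 in MIG1 (2111), 738 to 1399 for CUP1p-INH1 (1189), 686 to 1678, 32 to 232 and 0 to 500 for footprints of rho0, puf3 and puf3 rho0 (1568, 85, 288), 91 to 849, 33 to 179 and 106 to 832 for their efficiency (508, 48, 492) and 990 to 2973 across sets (1358).

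Without rescaling the percent of called genes that were higher moved from 46.0 to 66.9 in atp7, 51.5 to 64.5 in rho0, 53.7 to 64.3 in PUF3 atp7, 46.4 to 57.3 for puf3 by rho0, 45.9 to 25.2 in puf3-15A, 51.4 to 29.5 in puf3-15A rho0, 44.6 to 73.9 in snf1, 48.2 to 74.3 in snf1 EB against WT EB, 49.9 to 64.9 for its interaction, 51.3 to 31.0 in MIG1, 49.4 to 62.7 in INH1 rho0, 51.0 to 66.4 and 30.9 to 67.7 for rho0 and puf3 rho0 footprints, and 47.8 to 67.6 and 38.8 to 78.6 for their efficiency.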

Other observations

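In WT, GUT1 had few footprints for its mRNA level. Its mean RPKM in the footprint set over its mean mRNA RPKM in the PUF3 set was 0.126. Of 5209 genes 3.99% were lower, while the median gene was at 0.632. These WT groups differed in their markers, with a-specific sums of 16.8 to 32.4 RPKM in footprints and 566.4 to 830.5 in mRNA. The ratio was 0.133 in rho0, 0.117 in puf3 and 0.146 in puf3 rho0, with 3.24% to 3.89% of genes lower. GUT2 was at 0.619, NDE1 at 0.676, DLD1 at 0.686, CYB2 at 0.856 and NDI1 at 0.875. The GUT1 footprints rest on 9 to 26 reads per library.

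The patterns of the members across the 25 mRNA groups, centred within sets, were compared with those of 5378 genes averaging at least 10 RPKM, as a description, since the groups of a set share libraries and controls. NDE2 was most like PRX1 (Pearson r = 0.98), GLO1 (0.976) and HXT5 (0.975), and GUT2 most like TRX2 (0.961), YMR196W (0.959) and SSH4 (0.955). CYB2 was most like YCL042W (0.946), LSB6 (0.942) and GPC1 (0.941), and DLD1 most like KTR6 (0.923), PIN4 (0.912) and SMY1 (0.912). NDI1 was most like MCR1 (0.934), GPD1 (0.91) and EGH1 (0.908), GUT1 most like HXT4 (0.903), GSF2 (0.881) and MMP1 (0.865), and NDE1 most like FLC1 (0.894), SND1 (0.87) and BAP2 (0.855). Among the 21 pairs of members r was highest for NDE2 and GUT2 (0.939), CYB2 and DLD1 (0.907) and NDI1 and GUT2 (0.898), and lowest for NDE1 and GUT1 (-0.264).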
